A study of Mus musculus with 10 samples.

Results

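Complex I, or NADH:ubiquinone oxidoreductase, is the first and largest enzyme of the respiratory chain, and 48 of the 13492 genes in the table carry its Nduf name. The members are all genes whose symbol begins with Nduf. Those whose symbol begins with Ndufaf are the assembly factors (8), and the other 40 are called subunits by that rule. The genes were measured in the tibialis anterior, the muscle along the shin, which in mice consists largely of fast fibres. The mice were C57BL/6, 6 months of age, and had no food for 3 h. The genotype was Lrtm1 KO in 5 libraries and Lrtm1 WT in 5, and the series' design text describes the latter as flox controls. Each of 3 litters gave libraries of both genotypes, with 2 knockouts beside 1 control in litter 108, 1 beside 2 in litter 110 and 2 beside 2 in litter 112. That text also states fewer animals per group than are labelled, and every labelled library (10) entered the fits. The sources used here do not state which part of Lrtm1 was deleted, what drove the deletion or whether each library came from its own animal. The p-values therefore describe spread among libraries, which may be technical.

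Complex I takes electrons from NADH, passes them through a flavin and a chain of iron-sulphur clusters to ubiquinone, and pumps protons across the inner mitochondrial membrane. Its peripheral arm, which reaches into the matrix, holds the NADH-binding N module and the quinone-binding Q module; its membrane arm holds the proton pumps, whose central proteins are encoded by mitochondrial DNA. A small set of core subunits, conserved from bacteria, carries the chemistry, and many supernumerary subunits surround and stabilise it. Assembly factors help to build the enzyme and are not part of the finished complex. Muscle fibres carry the enzyme in amounts that follow their oxidative capacity.

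Of the 40 genes called subunits by name, 37 belong to the modules of the complex: 8 to the N module, 8 to the Q module, 9 to the proximal and 12 to the distal part of the membrane arm. Within these 37, 7 are core subunits and 30 are supernumerary. The other 3 carry the name for other reasons. Ndufa4 encodes a protein first assigned to complex I and now counted with cytochrome c oxidase, Ndufa4l2 encodes its relative that is induced by hypoxia, and Ndufb4c is annotated as a processed pseudogene of Ndufb4.

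Promoters of the members were read because most members lay on the same side of 0 between the groups, and because respiratory genes are known to share binding sites for a few factors. RefSeq windows on GRCm38.p6, from 250 bases before the start of a gene to 50 after it, were found for 41 of the 48 members. The following 5 members are given 5′ to 3′, on the strand of the gene, up to the base before its RefSeq start, with motif matches in capitals. They were chosen to cover both kinds of gene and both motifs that matched often, and each printed stretch, which is shorter than the window, overlaps no exon annotated in GENCODE M21. Ndufb2 is shown as one of the 2 genes called in one of the fits below, and it has no match.
Ndufa11, a membrane-arm subunit (chr17:56717692-56717761, plus strand), with an NRF1 motif in capitals: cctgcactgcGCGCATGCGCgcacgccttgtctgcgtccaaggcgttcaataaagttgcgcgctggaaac
Ndufaf4, an assembly factor (chr4:24897963-24898082, plus strand), with the same NRF1 motif in capitals: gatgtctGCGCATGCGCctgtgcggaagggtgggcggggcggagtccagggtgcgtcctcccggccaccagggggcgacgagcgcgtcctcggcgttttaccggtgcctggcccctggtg
Ndufs8, a core subunit (chr19:3912775-3912944, minus strand), with a YY1 motif in capitals: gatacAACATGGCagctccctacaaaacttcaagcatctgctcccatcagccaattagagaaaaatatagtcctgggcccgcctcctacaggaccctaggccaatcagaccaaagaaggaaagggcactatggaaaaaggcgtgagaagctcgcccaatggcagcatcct
Ndufaf3, an assembly factor (chr9:108567437-108567526, minus strand), with a YY1 motif on the opposite strand in capitals: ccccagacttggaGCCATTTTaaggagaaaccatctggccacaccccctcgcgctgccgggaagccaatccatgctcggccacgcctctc
Ndufb2, a membrane-arm subunit (chr6:39592445-39592564, plus strand), with no match: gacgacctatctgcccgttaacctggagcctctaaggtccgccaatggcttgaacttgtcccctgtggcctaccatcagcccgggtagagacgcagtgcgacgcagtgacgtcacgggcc

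The motifs were searched on both strands of the whole window as plain letters. The NRF1 motif, the palindrome in capitals above with any base allowed at the middle A, lay in the windows of 9 of the 41 members (22.0%), 7 subunits and 2 assembly factors, against 11.6% of the 9417 tested genes with a window and 5.19% of all 27025 genes with one. The YY1 motif (AANATGGC) lay in 14 (34.1%), 12 subunits and 2 assembly factors, against 10.3% and 6.96%. In Ndufa3, Ndufa9, Ndufaf8, Ndufb8, Ndufc1, Ndufs4, Ndufs6 and Ndufs7 its only match, AAGATGGC, lay after the start of the gene, within the transcript. The NRF1 match of Ndufa6 and of Ndufaf5 also lay after the start. The stretches printed above end before the start and show none of these matches. The ETS motif (ACCGGAAGT), which GABPA binds, lay in 1 member, Ndufs3 (2.44%), against 2.59% of the tested genes and 1.21% of all genes. The motif of oestrogen-related receptors (TNAAGGTCA) lay in 1, Ndufb4 (2.44%), against 0.881% and 1.43%. The windows of members were richer in G and C (median 59.3%) than those of all genes (52.8%). Their base composition was not compared with that of the tested genes alone. These are letter matches in a window, and no binding was measured.

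Subunit transcripts were far more abundant than assembly factor transcripts. In control libraries, and per kilobase of transcript, the 40 subunits had a median of 128 CPM (the authors' depth-scaled read unit) and the 8 assembly factors a median of 9.86 CPM, a ratio of 13.0. All 37 subunits of the modules lay above all 8 assembly factors, with Ndufb4 the lowest subunit of the modules at 44.7 CPM per kb and Ndufaf1 the highest assembly factor at 24.0 CPM per kb. Lengths are the median of a gene's coding transcripts in the basic set of GENCODE M21, which need not be the transcripts expressed.

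**Figure D1:**
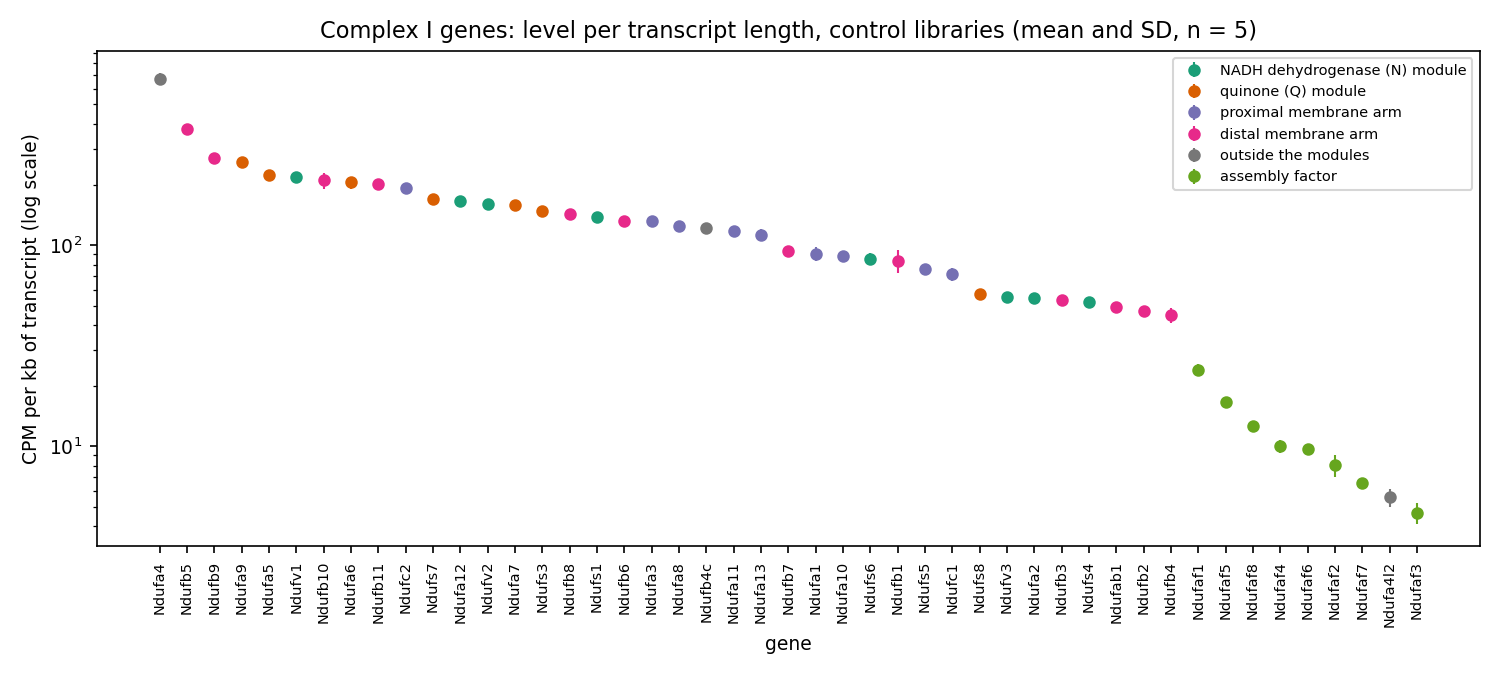
Level of each complex I gene reported by name per kilobase of transcript in the 5 control libraries (CPM per kb, log scale; points are means and bars SDs), ordered from high to low and coloured by role. The 8 assembly factors and Ndufa4l2 form the low end, from 24.0 CPM per kb for Ndufaf1 down to 4.67 for Ndufaf3.

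Within the modules, Ndufb5 of the distal membrane arm reached 378 CPM per kb and Ndufb9 of the same arm 271. Among the core subunits, Ndufv1 stood at 218 CPM per kb and Ndufs8, which holds iron-sulphur clusters, at 56.8. The Q module had the highest median of the 4 modules (187 CPM per kb), and the N module (112), the proximal arm (113) and the distal arm (113) were alike. Ndufa4 exceeded every member of the complex proper, at 673 CPM per kb, while its relative Ndufa4l2 stood at 5.58. Ndufb4 and Ndufb4c are near-copies between which reads could be split, so the level of each is uncertain. Ndufb1 is annotated as a non-coding gene in GENCODE M21 (there named Ndufb1-ps), so its length is that of a non-coding model.

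The level of the targeted gene goes against the knockout label. Lrtm1 was at 6.20, 6.12, 6.10, 5.97 and 6.21 log2 CPM in knockout replicates 1 to 5, and at 5.61, 5.66, 5.73, 5.65 and 5.78 in control replicates 1, 3, 4, 5 and 6. It was thus higher in each library labelled knockout than in any control (log2 difference 0.44, SE 0.07; limma, adjusted p = 0.0344). Leaving out control replicate 1, control replicate 5, control replicate 6 or knockout replicate 3 ended that call (limma adjusted p from 0.0529 to 0.143). Reads from exons that were not deleted would still count toward the gene, so it can be detected under either label. Why it was higher under the knockout label was not tested. All directions that follow compare libraries by their labels.

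No complex I gene passed the threshold between the labelled groups. Of the 48 members, 0 had an adjusted p under 0.05 in limma, where 41 of 12223 genes tested did (0.335%), 8 of them lower (0.0655%). An unadjusted p under 0.05 was reached by 4 members, all lower in the libraries labelled knockout (8.33%), where 10.1% of all genes tested reached it in either direction and 3.83% were lower. All 48 members passed the expression minimum, a mean log2 CPM of at least 0. This test counts the degrees of freedom that the authors' adjustment left: the deposited values hold no litter difference, and their residuals span 3 dimensions where genotype and litter leave 6. A fit with genotype and litter alone counts those 6, and its standard errors are too small. It called 2 members, Ndufb2 and Ndufb3, both lower (4.17%), where it called 8.62% of all genes (3.48% called lower). On GRCm38, GENCODE M21 places Ndufb2 at chr6:39592574-39603382 (plus strand), Ndufb3 at chr1:58586384-58595964 (plus strand), Ndufa12 at chr10:94198720-94221443 (plus strand), Ndufa1 at chrX:37187588-37191163 (minus strand), Ndufa6 at chr15:82350140-82354322 (minus strand) and Ndufaf4 at chr4:24898083-24905001 (plus strand), all as protein-coding genes.

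The differences of the members were small and mostly below 0. Of the 48, 41 lay below 0, where 51.4% of all genes tested did, and the median log2 difference was -0.063 against -0.0041 over all genes. Subunits and assembly factors had nearly the same median: -0.063 over 40 subunits, 35 of them below 0, and -0.064 over 8 assembly factors, 6 of them below 0. The members ranged from -0.18 (Ndufa1, or -12.0%) to 0.08 (Ndufaf3, or 5.9%). The 95% intervals included 0 for 44 of 48, and they reached from -0.35 to 0.34 at their widest. Counts and medians over a list describe it only. Its members are not replicates, and no test over the list was made.

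**Figure D2:**
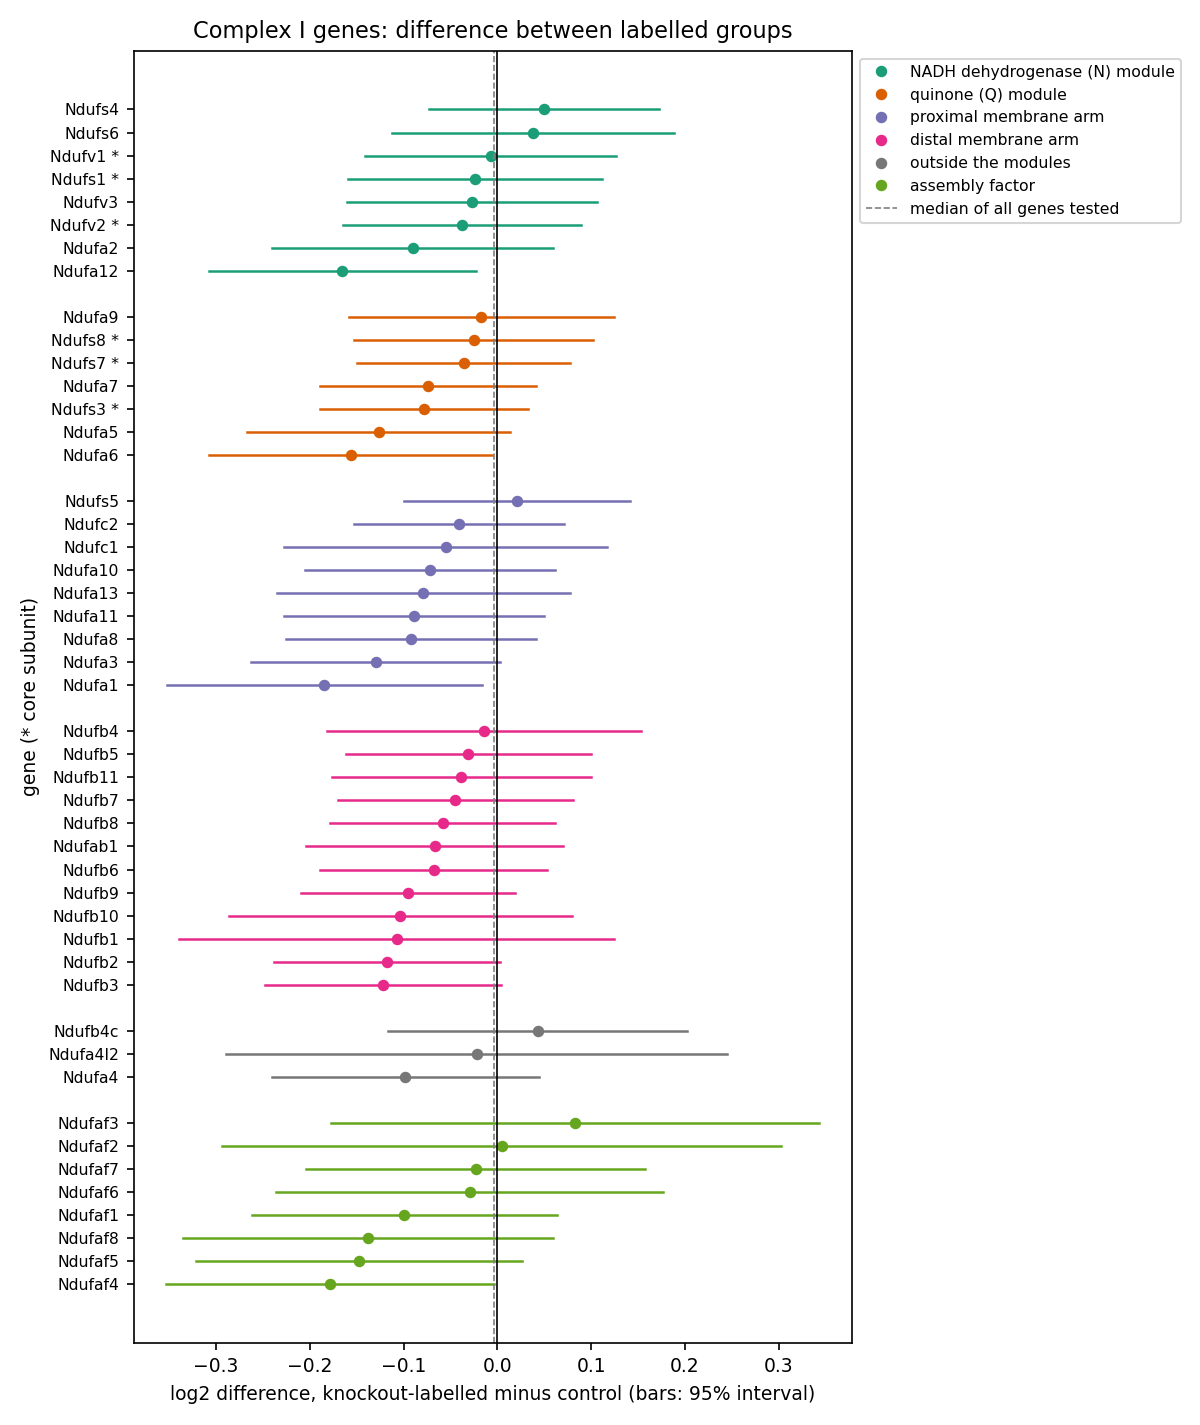
Log2 difference (libraries labelled knockout minus control) of each complex I gene reported by name with its 95% interval from limma, grouped by role, with core subunits starred and the median of all genes tested as a dashed line. Most points lie below 0, and the intervals of Ndufa1, Ndufa12, Ndufa6 and Ndufaf4 alone lie wholly below it.

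In the N module, which oxidises NADH, the catalytic genes had differences close to 0 and the accessory gene Ndufa12 had the largest, with no call. Ndufv1, which binds NADH and the flavin, had a log2 difference of -0.0071 (SE 0.06), Ndufv2, which carries an iron-sulphur cluster, of -0.04 (SE 0.06), and Ndufs1, which carries several, of -0.02 (SE 0.06). Ndufa12, an accessory subunit at the junction of the N and Q modules, was at 6.99, 6.97, 6.97, 6.83 and 6.94 log2 CPM in knockout replicates 1 to 5 against 7.03, 7.15, 7.04, 7.09 and 7.23 in control replicates 1, 3, 4, 5 and 6. Its groups did not overlap, with knockout replicate 4 the lowest of all. The difference of -0.17 (SE 0.06), or -10.8%, had a limma p of 0.0266 before adjustment and 0.411 after. Ndufs4 (0.05) and Ndufs6 (0.04), accessory subunits needed for a stable N module, had differences above 0 with intervals that included 0. The accessory subunits Ndufa2 (-0.09) and Ndufv3 (-0.03) made up the rest, and 6 of the 8 genes lay below 0, with a median of -0.025.

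The Q module, which hands electrons to ubiquinone, had 7 of 8 genes below 0 and a median of -0.055. Ndufs3, a core subunit without a cluster, had differences from the control in all 3 litters (-0.10, -0.08 and -0.06 in litters 108, 110 and 112) and groups that did not overlap (7.18 to 7.22 against 7.25 to 7.29 log2 CPM), but its limma adjusted p was 0.656. Ndufa6, an accessory subunit of the LYR family that holds the acyl carrier protein, was at 6.13, 6.08, 6.07, 6.17 and 6.20 against 6.34, 6.21, 6.42, 6.29 and 6.17 log2 CPM in the controls. Knockout replicates 4 and 5 lay above the lowest control, so the groups overlapped, and the difference was -0.16 (SE 0.07). Its limma p was 0.0436 before adjustment and 0.477 after. Ndufa5 (-0.13), Ndufa7 (-0.07), Ndufs7 (-0.04), Ndufs8 (-0.03) and Ndufa9 (-0.02) are the others reported.

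In the proximal membrane arm, next to the quinone site, 8 of 9 genes lay below 0, with a median of -0.079. Ndufa1, a small X-linked subunit with a single membrane helix, was at 5.07, 5.10, 5.04, 4.96 and 5.10 log2 CPM in knockout replicates 1 to 5 and at 5.18, 5.28, 5.21, 5.11 and 5.41 in control replicates 1, 3, 4, 5 and 6. The groups touched without overlapping, and the SD of the controls was the larger (0.11 against 0.06). That held for 43 of the 48 members, with a median SD of 0.072 in the controls against 0.050 under the knockout label. The same share over all genes tested was not counted, so this is not shown to be particular to complex I genes. The difference of -0.18 (SE 0.08), or -12.0%, was the largest among the 48, with a limma p of 0.0342 and an adjusted p of 0.443. Ndufa3 (-0.13) and Ndufc2 (-0.04) also had groups that did not overlap. Ndufs5, a subunit on the intermembrane side, was the gene with the least spread, at 5.51 to 5.53 against 5.49 to 5.52 log2 CPM (SD 0.0089 and 0.01, n = 5 each), and its difference was 0.02. Ndufa8 (-0.09), Ndufa11 (-0.09), Ndufa13 (-0.08), Ndufa10 (-0.07) and Ndufc1 (-0.06) overlapped between groups.

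In the distal membrane arm all 12 genes lay below 0, from -0.12 to -0.01, with a median of -0.067. Ndufb3, one of its small subunits, was at 5.22, 5.24, 5.25, 5.24 and 5.19 log2 CPM in knockout replicates 1 to 5 and at 5.35, 5.37, 5.31, 5.37 and 5.36 in control replicates 1, 3, 4, 5 and 6, or 37.5 ± 0.56 against 40.8 ± 0.67 CPM (SD, n = 5 each). Each library labelled knockout lay below each control, and the difference was below 0 in litters 108, 110 and 112 (-0.12, -0.09 and -0.14). Its log2 difference of -0.12 had an SE of 0.06 and a limma adjusted p of 0.513; with genotype and litter alone the SE was 0.03 and the adjusted p 0.026. Ndufb2, another small subunit, was at 6.70, 6.70, 6.74, 6.72 and 6.65 against 6.82, 6.83, 6.77, 6.89 and 6.79 log2 CPM. Here too the groups did not overlap, with a difference of -0.12 (SE 0.06; limma adjusted p = 0.506, and 0.0497 with genotype and litter alone). Ndufb9 (-0.10) was the third gene of the arm whose groups did not overlap, while the widest spread of any member was that of Ndufb1, with SDs of 0.14 and 0.18 (n = 5 each) and a difference of -0.11 (SE 0.10). The other 8 genes, among them Ndufb5 (-0.03), the most abundant of the arm, and Ndufab1 (-0.07), the mitochondrial acyl carrier protein, overlapped between groups, from -0.10 (Ndufb10) to -0.01 (Ndufb4).

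**Figure D3:**
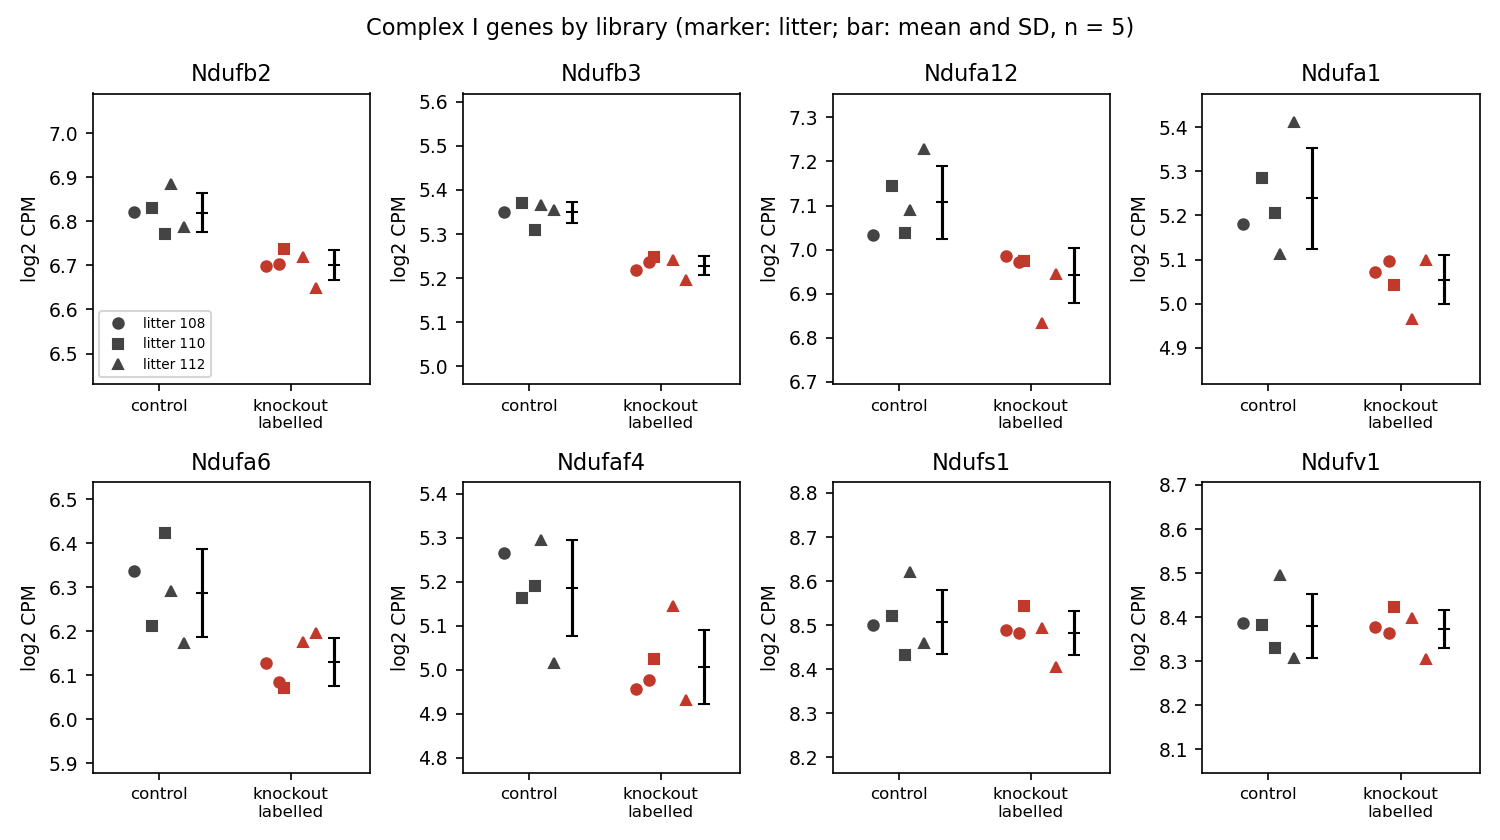
Log2 CPM of 8 complex I genes in each library, by labelled group, with litters as marker shapes and means with SDs (n = 5) beside them; every panel spans the same range of log2 CPM. Ndufb2, Ndufb3, Ndufa12 and Ndufa1 do not overlap between the groups, while the core genes Ndufs1 and Ndufv1 overlap.

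The 3 genes outside the modules gave no call either. Ndufa4 was at 289 ± 10.1 CPM in the libraries labelled knockout and 309 ± 19.2 CPM in the controls (SD, n = 5 each), a log2 difference of -0.10 (SE 0.06). Ndufa4l2 differed by -0.02 (SE 0.12) and the pseudogene Ndufb4c by 0.04 (SE 0.07).

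The 8 assembly factors had low levels and wide spread. Ndufaf4, which with Ndufaf3 helps to join the early Q module to the membrane, was at 4.96, 4.98, 5.03, 5.14 and 4.93 log2 CPM in knockout replicates 1 to 5 and at 5.26, 5.16, 5.19, 5.29 and 5.02 in control replicates 1, 3, 4, 5 and 6. Knockout replicates 3 and 4 lay above the lowest control, so the groups overlapped. The difference of -0.18 (SE 0.08), or -11.6%, had a limma p of 0.0459 and an adjusted p of 0.484. Its partner Ndufaf3 had a difference of 0.08 (SE 0.12), so the point estimates of the pair had opposite signs, and neither passed the threshold. Ndufaf5, which modifies an arginine of Ndufs7, differed by -0.15 (SE 0.08; limma adjusted p = 0.572). Ndufaf8, its partner protein, was at 2.74 to 2.83 against 2.89 to 2.96 log2 CPM without overlap, a difference of -0.14 (SE 0.09; adjusted p = 0.662). Ndufaf1, which acts on the membrane arm, was the most abundant per kilobase and differed by -0.10 (SE 0.07). Ndufaf7 (-0.02), a methyltransferase for a core subunit, Ndufaf6 (-0.03) and Ndufaf2 (0.0045), a late factor at the peripheral arm, were close to 0, with SEs of 0.08 to 0.14. The median SD within a group was 0.088 over the assembly factors against 0.051 over the subunits.

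Averaged by library, the supernumerary subunits were apart between the groups and the core subunits were not. The mean over the 30 supernumerary subunits was 6.42, 6.41, 6.44, 6.41 and 6.38 log2 CPM in knockout replicates 1 to 5 and 6.48, 6.49, 6.46, 6.54 and 6.47 in control replicates 1, 3, 4, 5 and 6. Every library labelled knockout thus lay below every control, by a narrow margin (at most 6.440 against at least 6.457), with an average difference of -0.072. The mean over the 7 core subunits was 7.70, 7.71, 7.74, 7.72 and 7.67 against 7.73, 7.74, 7.69, 7.78 and 7.71, with overlap and an average difference of -0.025. By module, the means were also apart for the Q module, which holds core subunits (at most 7.165 against at least 7.169). They were apart for the proximal arm too (6.212 against 6.258). They overlapped for the N module and for the distal arm, which is all supernumerary (6.591 to 6.689 against 6.664 to 6.796). The core genes are longer transcripts (median 1312 bases) than the supernumerary subunits (median 718 bases). Length bears on the differences, as given below, and core and supernumerary means were not compared at equal length. The mean over the 8 assembly factors was 3.62, 3.66, 3.68, 3.76 and 3.61 against 3.78, 3.73, 3.71, 3.78 and 3.65, so that knockout replicates 2, 3 and 4 lay within the range of the controls. The gap between subunits and assembly factors was 2.90 ± 0.05 log2 CPM in the libraries labelled knockout and 2.89 ± 0.05 in the controls (SD, n = 5 each), a difference smaller than either SD.

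**Figure D4:**
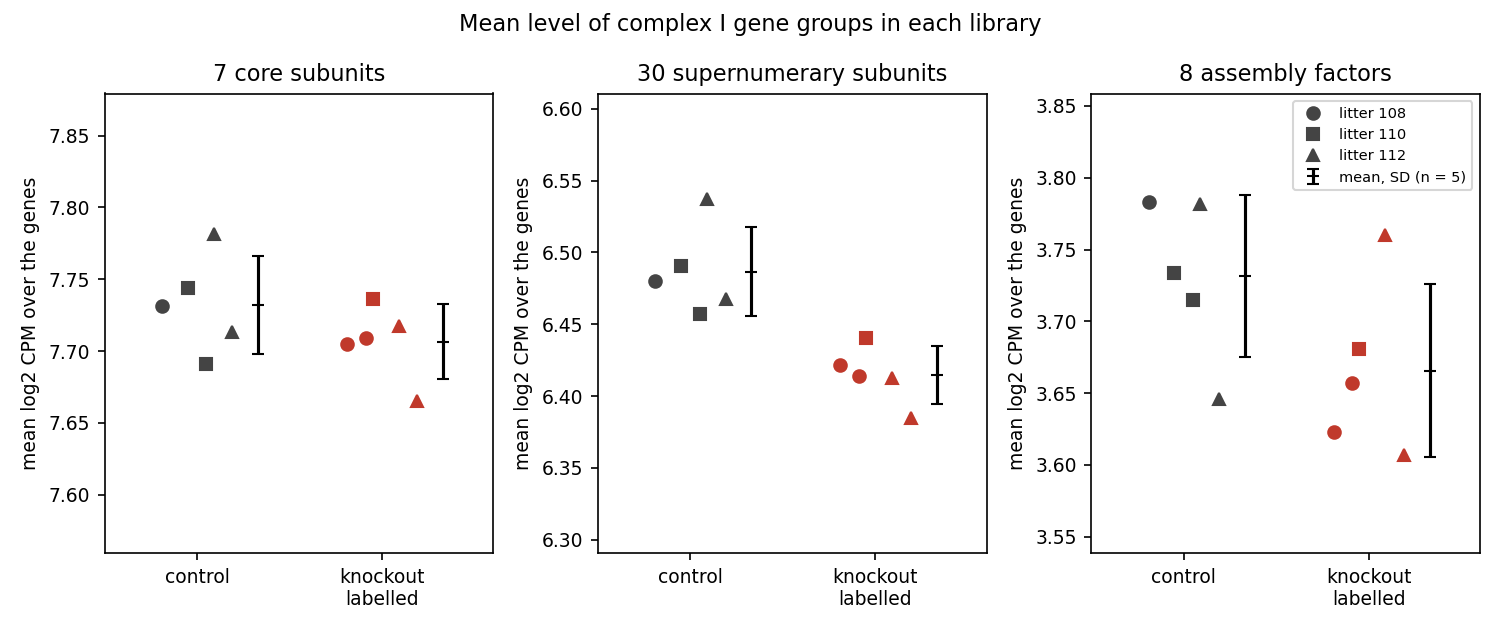
Mean log2 CPM over the 7 core subunits, the 30 supernumerary subunits and the 8 assembly factors in each library, by labelled group and litter (marker), with the mean and SD of 5 libraries beside the points; each panel spans the same range. The groups are apart for the supernumerary subunits and overlap for the core subunits and the assembly factors.

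The groups did not overlap in 10 of the 48 members, all lower in the libraries labelled knockout (20.8%), where 7.63% of all genes were lower without overlap and 16.2% were apart in either direction. The 10 were Ndufa12, Ndufa7, Ndufs3, Ndufa1, Ndufa3, Ndufc2, Ndufb2, Ndufb3, Ndufb9 and Ndufaf8. Lack of overlap is given as a description, since the values were adjusted with genotype kept. Litters differed in how far the members lay below 0: 39 of 48 did in litter 108, 29 in litter 110 and 37 in litter 112, with medians of -0.069, -0.031 and -0.087. In 23 members, 47.9%, the difference was below 0 in all 3 litters, as it was in 24.2% of all genes tested. Agreement among litters is a description too. It comes from the same adjusted values, and litter 108 has 1 control and litter 110 has 1 knockout. Ndufb1, Ndufb10 and Ndufa13, picked here after their values were seen, differed by -0.27, -0.29 and -0.23 in litter 112 and were above 0 in litter 110 (0.13, 0.08 and 0.02).

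Transcript length moved with these differences across the whole table. With all genes tested split into 5 classes by length, the shortest (up to 1496 bases) had a median log2 difference of -0.041, with 64.9% of genes below 0, and the longest a median of 0.045. Complex I genes are short: 33 of the 40 subunits and 6 of the 8 assembly factors fell in that shortest class, with medians of -0.068 and -0.064. When each library was centred within 20 length classes, the median was -0.040 over the subunits and -0.050 over the assembly factors, 33 of 48 members stayed below 0 and none passed the threshold. The direction of 8 members with small differences turned, the core genes Ndufs1, Ndufv1, Ndufs7 and Ndufs8 among them. The part of length in the differences was not otherwise tested.

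**Figure D5:**
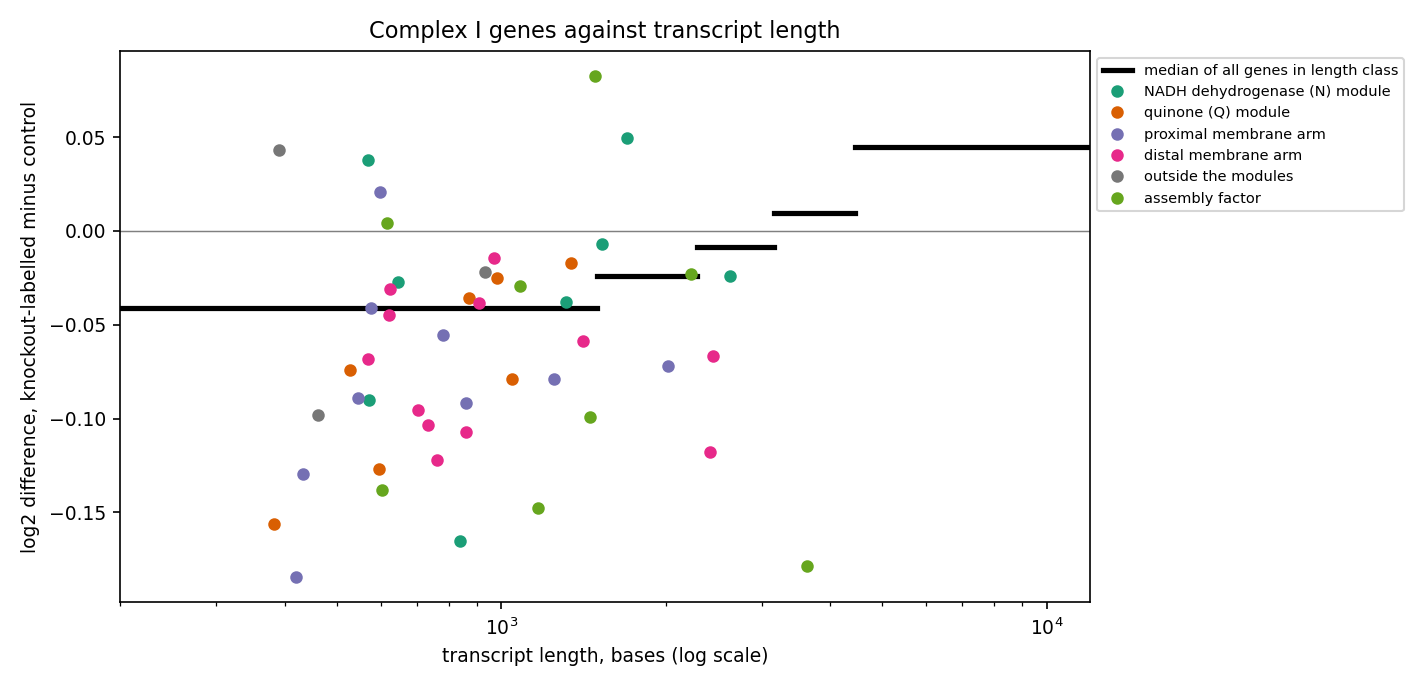
Log2 difference of each complex I gene reported by name against its transcript length in bases (log scale), coloured by role, with black bars for the median of all genes tested in each of 5 length classes. Most members lie at the short end, where the median of all genes is itself below 0 (-0.041).

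Genes of other parts of the pathway gave the following counts, where 51.4% of all genes tested lay below 0. Of the 7 complex I subunits encoded by mitochondrial DNA, which form the proton pumps of the membrane arm, 5 lay below 0 with a median of -0.097, and none passed the threshold (0 higher, 0 lower). The extremes were mt-Nd6 (-0.15, SE 0.12) and mt-Nd4l (0.13, SE 0.10). Of the 11 measured assembly factors without an Nduf name, among them Acad9 (-0.10), Ecsit (0.0097) and Tmem126b (0.06), 5 lay below 0, with a median of 0.0041, a mean of -0.016 and none called. Of 13 genes for the synthesis of coenzyme Q, the electron acceptor of complex I, 9 lay below 0 (median -0.050). None was called, and 2 were lower with genotype and litter alone, Coq7 (-0.16) and Coq3 (-0.15), a hydroxylase and a methyltransferase of the pathway. The fit with genotype and litter alone called 3.48% of all genes tested lower.

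Among 10 regulators of nuclear respiratory genes none passed the threshold either, and 7 lay above 0. Ppargc1a, which encodes the coactivator PGC-1 alpha, had the largest difference, 0.81 (SE 0.21). Its limma p was 0.00279 before adjustment and 0.212 after. It was at 6.02, 5.95, 6.26, 5.66 and 5.49 log2 CPM in knockout replicates 1 to 5 and at 4.84, 5.22, 4.51, 5.61 and 5.11 in control replicates 1, 3, 4, 5 and 6. Control replicate 5 lay above the lowest library labelled knockout, so the groups overlapped. Of the genes for the factors whose motifs were searched, Nrf1 differed by 0.01, Gabpa by 0.04 and Esrra by -0.08, with overlap. Yy1 differed by 0.07 (SE 0.06) without overlap, at 5.36 to 5.43 against 5.26 to 5.35 log2 CPM, and its limma adjusted p was 0.765.

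Most genes of 2 further nuclear-encoded mitochondrial sets also lay below 0, where 51.4% of all genes tested did. Of 46 genes of complexes II to V (the rest of the respiratory chain, and ATP synthase), 42 lay below 0, with a median of -0.048 and 0 called (5 lower with genotype and litter alone). Of 79 genes for proteins of the mitochondrial ribosome, which translates the messages of mitochondrial DNA, 60 did, with a median of -0.038 and 0 called (3 lower with genotype and litter alone). The fit with genotype and litter alone called 3.48% of all genes tested lower. Median lengths were 724 bases for complexes II to V and 1223 bases for the ribosomal proteins. In the shortest of the 5 length classes (up to 1496 bases), 64.9% of all genes lay below 0. No test of a difference between these sets and complex I was made.

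The libraries held muscle transcripts as labelled. Of 7 muscle fibre markers all were measured, at a summed 92144 to 95885 CPM in the libraries labelled knockout and 83713 to 94340 CPM in the controls, and the 6 slow fibre markers together reached 33.8 to 43.6 against 29.99 to 44.3 CPM. Of the muscle fibre markers 6 lay above 0 (median 0.058) and Mb lay below (-0.14). Of the slow fibre markers 3 lay above 0 and 3 below. Their sum is mostly Myl3 (mean 4.77 log2 CPM), which differed by -0.02. The less abundant Myh7 (0.98, SE 0.52), Tnnc1 (0.35, SE 0.36), Myl2 (0.09, SE 0.34), Tnnt1 (-0.19, SE 0.26) and Tnni1 (-0.26, SE 0.30) differed by more. In bulk tissue, fewer fibres of a type and less RNA per fibre cannot be told apart. All 7 adipocyte markers lay below 0, at a summed 69.1 to 79.5 against 80.0 to 96.8 CPM. That sum is mostly Fabp4 (mean 5.99 log2 CPM), which differed by -0.05. The less abundant Lep (-2.21), Cidec (-1.20), Adipoq (-0.98), Plin1 (-0.89), Cfd (-0.62) and Retn (-0.19) differed by more. Of the 6 adipocyte markers tested, 5 had an unadjusted limma p under 0.05, where 10.1% of all genes tested did. Also below 0 were all 5 macrophage markers, at 24.5 to 26.5 against 25.5 to 28.8 CPM, and all 3 satellite cell markers. The summed ranges of the endothelium, fibroblast, macrophage, satellite cell and red blood cell markers overlapped between the groups. None of the markers tested was called (1 adipocyte marker was below the expression minimum). With genotype and litter alone, 4 adipocyte markers were called lower, as were 3.48% of all genes tested. The part of these cell types in the differences of complex I genes was not tested.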

How the data were processed

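Muscle RNA was isolated with TRIzol, selected by oligo dT and sequenced from a strand-keeping kit of BGI/MGI, per the labels' protocols. The submitters' processing notes name fastp, kallisto and limma without versions. For genome build, annotation, strand handling and adjustment terms: not given in the sources used here. As deposited, values are log2 CPM, adjusted by the authors, for 13492 genes in 10 libraries. Depth is unknown because the table keeps no read totals, and counting intervals were left out. On the linear scale, library sums lay from 960166 to 1016398 CPM.

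With genotype in the fit, litter differences were 0 in every gene within rounding, and residuals spanned 3 of 6 dimensions, so litter and 3 further terms had been removed with genotype kept. SDs leave out that variation. Of the genes, 12223 reached a mean of 0 log2 CPM and were tested (1269 were left out). The two-sided test was limma 3.58.1 in R 4.3.3, using the trended eBayes prior, with genotype, litter and the 3 removed terms, and Benjamini-Hochberg adjustment over all genes tested; the threshold was an adjusted p of 0.05. No pseudocount was added. The fit was also run on simulated data with independent noise, after removal of terms built to be uncorrelated with genotype and litter. Whether the authors' terms were uncorrelated with genotype is not known. The simulation therefore cannot show whether the standard errors are right for these data. The members, gene lists and this choice of fit were made with earlier results of these data known. The rule for named genes takes members with an unadjusted p under 0.05, or past the threshold with genotype and litter alone, the largest difference either way and the most abundant per length in each role group, the core subunits, all Ndufaf genes and the named exceptions; other members are named with their values in passing. One member is not reported here by name and is left out of the figures. Lengths and annotation came from GENCODE M21 (GRCm38), matched by Ensembl identifier for 99.1% of genes tested, and promoter sequences from RefSeq (GRCm38.p6). In GENCODE M21, 15 members overlap another measured gene, 14 of them only on the opposite strand, so their values are less certain if counting ignored strand. Alternatives covered the block, filters, variance prior, scaling, length, pseudocount and each library left out.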

Additional observations from a re-analysis of the deposited data

Results flagged for a closer look

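Among 102 sets of 5 libraries examined (each complex I gene, the mean over the subunits, the mean over the assembly factors and the gap between both, in either group), 5 held a library far from the other 4 by Dixon's criterion at 95%, where chance gives about 5% of sets. All 5 were the library labelled knockout replicate 4. It was lowest for Ndufa12 (6.83 log2 CPM, the next at 6.94) and highest for Ndufc1 (5.90, the next at 5.73), Ndufb6 (6.22, the next at 6.16) and Ndufaf7 (3.97, the next at 3.83). The gap between the mean of the subunits and the mean of the assembly factors was smallest in the same library, at 2.81 log2 CPM with the next at 2.91.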

How the results depend on the processing

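No complex I gene passed the threshold in any of 22 alternatives but one: with genotype and litter only, 2 did. The count of all genes past the threshold was 41 as reported, 1054 with genotype and litter only, 127 under the replicate block, 1 with no trend, 24 after quantile normalisation, and 8 to 60 without one library. The replicate block used the 8 libraries whose numbers (1, 3, 4 and 5) both groups share. Deviations of same-numbered libraries correlated at -0.85, 0.45, 0.03 and -0.50, and 0 of 4 correlated best with their own number. With litter removed, deviations within a litter sum to 0, and the libraries of 3 of the 4 numbers share a litter. These correlations therefore cannot show whether the numbers pair the samples. The main fit did not use the numbers as pairs. Lrtm1 lost its call with no trend (0.44, adjusted p = 0.315), after quantile normalisation (0.42, 0.0517) and with classes of the longest transcript (0.37, 0.0586), an alternative chosen after seeing the data; without one library its difference ranged from 0.39 to 0.49. The cause was not tested. The medians stayed below 0 throughout: -0.073 to -0.045 over subunits and -0.11 to -0.041 over assembly factors without one library, and -0.030 for both with classes of the longest transcript.

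Of the 48 members, 33 kept their direction in every alternative. Centred within length classes, the differences turned for Ndufs7 (0.0058), Ndufb4 (0.027), Ndufs1 (0.013), Ndufb11 (0.0034), Ndufv1 (0.022), Ndufa4l2 (0.020), Ndufaf6 (0.033) and Ndufs8 (0.016). With classes of the longest transcript they turned for Ndufa9 (0.0066), Ndufaf7 (0.016), Ndufv2 (0.0057), Ndufs1 (0.015), Ndufc1 (0.012), Ndufv1 (0.016), Ndufaf6 (0.038) and Ndufs8 (0.042), and under the replicate block for Ndufa4l2 (0.0036) and Ndufaf2 (-0.014). Leaving out one library turned 11 differences, and for 10 of them the ranges were -0.049 to 0.030 (Ndufa9), -0.0090 to 0.077 (Ndufs6), -0.067 to 0.018 (Ndufb4), -0.066 to 0.024 (Ndufaf7), -0.060 to 0.015 (Ndufs1), -0.11 to 0.0055 (Ndufc1), -0.037 to 0.032 (Ndufv1), -0.11 to 0.030 (Ndufa4l2), -0.084 to 0.017 (Ndufaf6) and -0.094 to 0.088 (Ndufaf2). Unknown depth limits what can be said of the low assembly factors.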
